A study of Homo sapiens with 51 samples.

Results

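HMLE-TWIST1 cells given only the solvent DMSO were compared between 2 times of harvest, day 4 against day 2, over all genes of the deposited expression table. The members were 6 libraries of the 51 in the series, 3 per group, chosen by their labels alone. HMLE cells are an immortalised human mammary epithelial line, and HMLE-TWIST1 is its derivative that overexpresses TWIST1; the promoter that drives TWIST1, and whether the line is 1 clone, are not given in the sources used here. Day 4 cells of both lines had 15 h of DMSO, a wash and 48 h of DMSO-free medium, which is 63 h from the start, and day 2 cells had 48 h of DMSO. Time in culture, the presence of DMSO at harvest and the change of medium therefore differed together and cannot be told apart. HMLE cells, labelled wild type, served as the first comparison under the same 2 schedules. The second comparison was HMLE-TWIST1 cells with a scramble siRNA duplex, taken on day 4 after 48 h with the duplex and 48 h in fresh medium, or on day 2 after the first 48 h. All groups shared one medium, a 3:7 mixture of MEGM with DMEM/F12 that held 10% FCS and antibiotics, and none of these groups received chaetocin or a duplex against SUV39H1 and SUV39H2.

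TWIST1 is a basic helix-loop-helix transcription factor that drives the epithelial-mesenchymal transition. In that transition cells lose E-cadherin and keratins, gain N-cadherin and vimentin, and rebuild their actin cytoskeleton. Shortage of amino acids is sensed through the transcription factor ATF4, which drives amino acid transporters and tRNA synthetases. The comparison of day 4 with day 2 in solvent gives the background against which the series sets its day 4 samples.

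The 6 libraries held 12373777, 11621605 and 8807659 reads on genes at day 4, against 9949088, 13765896 and 12972505 at day 2, and the most abundant gene took 2.67 to 3.47% of a library. Values are CPM, reads of a gene scaled to library size, from reads recovered from the deposited log2 RPKM, and they compare samples, not genes of unequal length. Across genes, log2 CPM correlated between HMLE-TWIST1 libraries at 0.989 to 0.990 within day 4, at 0.989 to 0.991 within day 2 and at 0.986 to 0.990 between the days, so a pair from different days was nearly as alike as a pair from the same day. In HMLE the correlations were 0.987 to 0.991 within a day and 0.962 to 0.979 between days. Reads of the 5.8S ribosomal RNA pseudogene RNA5-8SP6 stood at 84.7, 25.1 and 5.9 CPM at day 4, against 3.68, 4.54 and 0.224 CPM at day 2, and its difference did not pass the test (limma adjusted p = 0.313); the part of ribosomal RNA carried through depletion in the results was not tested.

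The identity of the line was checked first. TWIST1 had 358, 476 and 420.2 CPM at day 4, against 491, 483 and 619.8 CPM at day 2 in HMLE-TWIST1, and stood between 4.68 and 9.40 CPM in the HMLE libraries. The TWIST1 groups of HMLE-TWIST1 did not overlap, yet the difference (log2 fold change -0.35, SE 0.15, limma adjusted p = 0.359) did not pass the threshold. E-cadherin (CDH1), which holds epithelial cells together, had 0.309, 0 and 0.214 CPM at day 4, against 0.0968, 0.07097 and 0.0747 CPM at day 2, where HMLE libraries had 470.3 to 697 CPM. The epithelial adhesion molecule EPCAM had 0, 0.08296 and 0.107 CPM at day 4, against 0, 0 and 0.0747 CPM at day 2. These defining markers of the labelled cell type, mammary gland epithelium, were thus at or near 0 in HMLE-TWIST1 at both times. N-cadherin (CDH2) had 99.3, 125 and 105 CPM at day 4, against 109, 132 and 149 CPM at day 2, with overlapping groups. Vimentin (VIM) had 2372, 2948 and 2473 CPM at day 4, against 2365, 2191 and 2544 CPM at day 2, also overlapping. The extracellular matrix protein FN1 had 19202, 24559 and 20104 CPM at day 4, against 19534, 21252 and 23821 CPM at day 2. The transition factors ZEB1 and SNAI2 gave log2 fold changes of 0.03 (SE 0.11) and 0.01 (SE 0.10). The histone H3K9 methyltransferases SUV39H1 and SUV39H2 gave 0.03 (SE 0.19) and 0.06 (SE 0.15) on the same scale. None of these 10 markers passed the test between the days in HMLE-TWIST1 with DMSO, where the limma adjusted p ran upward from 0.359. TWIST1 alone had an unadjusted p under 0.05. With the scramble duplex TWIST1 (-0.36), VIM (-0.67), FN1 (-0.62) and SNAI2 (-0.76) passed, each lower at day 4. The other markers did not pass there. Markers of other cells were at low levels or near 0, except PPARG: over the 3 libraries of a day, the leukocyte marker PTPRC had 0 reads at day 4 and 2 at day 2, the endothelial markers CDH5 and EMCN had 0 at both, and the adipocyte marker FABP4 had 0 and 1. The most read members were CSF1R with 60 and 87 reads and CD14 with 72 and 73 among leukocyte markers, KDR with 72 and 64 among endothelial markers, and PPARG with 865 and 796 among adipocyte markers. Of 14 leukocyte, 11 endothelial and 9 adipocyte markers, 4, 5 and 4 could be tested and none passed. The summed levels overlapped between the days for all 3 lists. They stood at 6.33 to 7.65 CPM at day 4, against 7.32 to 8.04 CPM at day 2, for leukocyte markers. For endothelial markers they stood at 3.48 to 4.87 CPM at day 4, against 3.14 to 5.33 CPM at day 2, and for adipocyte markers at 20.08 to 35.6 CPM at day 4, against 20.4 to 33.99 CPM at day 2.

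Few genes differed between the days in HMLE-TWIST1. Among 17680 genes tested, 26 were higher at day 4 (0.147%) and 35 were lower (0.198%) at a limma adjusted p under 0.05, the threshold used throughout, and 2240 (12.7%) had an unadjusted p under 0.05. Among genes past the threshold with a mean log2 CPM of at least 2 over the 6 libraries, the largest changes were a rise of the fructose transporter SLC2A5 and a fall of the keratin KRT7. The median log2 fold change over all genes was 0.002 and the median size of a change was 0.136. A change of 2-fold or more was seen in 127 genes (0.718%), and for 14985 genes (84.8%) the 95% confidence interval lay inside a 2-fold change in either direction. The libraries of the days did not overlap for 18.6% of all genes tested, whatever their p, and for each of the 61 that passed. RNA of bulk cultures was measured, so a change in the share of cells that express a gene and a change in RNA per cell cannot be told apart.

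**Figure D1:**
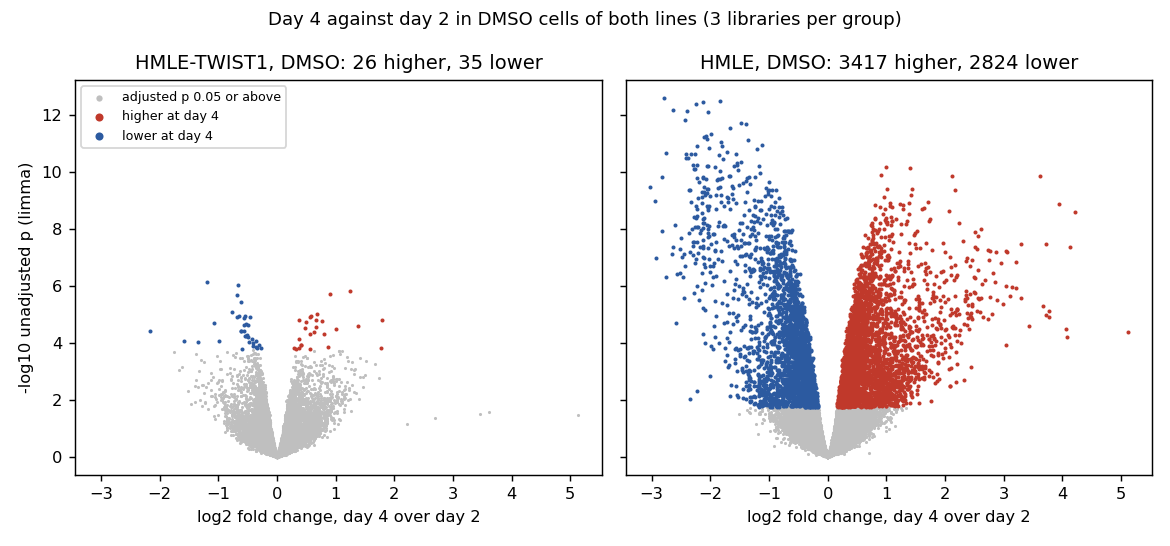
Log2 fold change of day 4 over day 2 (x axis) against -log10 of the unadjusted limma p (y axis) for each gene tested in DMSO cells of HMLE-TWIST1 (left) and HMLE (right), with 3 libraries per group. Colours mark genes past an adjusted p of 0.05: 26 higher and 35 lower in HMLE-TWIST1, against 3417 higher and 2824 lower in HMLE.

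The number of genes past the threshold depended on single libraries. Without day 4 replicate 1 there were 10 higher and 13 lower, without day 4 replicate 2 there were 61 and 121, and without day 4 replicate 3 there were 0 and 3. Without day 2 replicate 1 there were 42 higher and 33 lower, without day 2 replicate 2 there were 7 and 11, and without day 2 replicate 3 there were 5 and 5. The direction of the 61 genes was the same in all 15 alternatives counted, of scaling, filter, weights, fit and left-out HMLE-TWIST1 libraries, wherever the gene was tested. Fits that left out an HMLE library were also run and are not among the 15. KRT7 alone passed in every one of the 15. With limma run on the deposited log2 RPKM as the authors scaled them, KRT7 was the one gene that passed. Nothing in the labels says that replicates came from separate cultures, so the p-values measure the spread between these libraries, which may be technical.

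Sequences of 4 promoters are shown, of genes from the groups described next: an actin-binding protein, a tRNA synthetase and a chaperone of the endoplasmic reticulum that fell, and a metabolic regulator that rose. Each carries the motif marked in it and does not stand for its group in that respect. Each window runs from 250 bases before to 50 bases after the start of the gene in RefSeq, build GRCh38.p14, 5′ to 3′ on the strand of the gene, and the capitals mark matches to the motif named for it. CNN2 lies at chr19:1026358-1026657 on the plus strand, with a CArG box, the element bound by serum response factor, beginning 89 bases before the start. MARS, named MARS1 in RefSeq, lies at chr12:57487818-57488117 on the plus strand, with TGATGNAA, an element bound by ATF4 with its partners, on the opposite strand from 4 bases before the start. HSPA5 lies at chr9:125241294-125241593 on the minus strand, with the endoplasmic reticulum stress element, a CCAAT box followed at a fixed distance by CCACG, from 66 bases before the start. TXNIP lies at chr1:145996530-145996829 on the minus strand, with CCAAT boxes from 140 and 105 bases before the start.
CNN2: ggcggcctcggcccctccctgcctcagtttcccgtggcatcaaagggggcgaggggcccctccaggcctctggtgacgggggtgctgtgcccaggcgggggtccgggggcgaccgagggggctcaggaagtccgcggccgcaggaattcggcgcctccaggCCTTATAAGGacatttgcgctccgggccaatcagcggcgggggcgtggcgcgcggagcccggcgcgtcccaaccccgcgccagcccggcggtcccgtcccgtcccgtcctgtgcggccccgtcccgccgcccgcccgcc
MARS: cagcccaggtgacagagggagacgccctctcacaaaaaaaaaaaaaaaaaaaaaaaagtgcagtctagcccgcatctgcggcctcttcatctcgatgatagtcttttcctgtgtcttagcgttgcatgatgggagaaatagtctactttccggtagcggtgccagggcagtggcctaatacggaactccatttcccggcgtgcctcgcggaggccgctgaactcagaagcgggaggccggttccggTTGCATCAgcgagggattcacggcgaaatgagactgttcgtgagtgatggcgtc
HSPA5: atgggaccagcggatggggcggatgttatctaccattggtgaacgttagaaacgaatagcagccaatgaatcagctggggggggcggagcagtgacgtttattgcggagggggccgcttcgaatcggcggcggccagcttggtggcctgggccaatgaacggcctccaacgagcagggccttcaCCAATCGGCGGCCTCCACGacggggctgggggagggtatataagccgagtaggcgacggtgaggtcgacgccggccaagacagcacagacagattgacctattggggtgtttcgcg
TXNIP: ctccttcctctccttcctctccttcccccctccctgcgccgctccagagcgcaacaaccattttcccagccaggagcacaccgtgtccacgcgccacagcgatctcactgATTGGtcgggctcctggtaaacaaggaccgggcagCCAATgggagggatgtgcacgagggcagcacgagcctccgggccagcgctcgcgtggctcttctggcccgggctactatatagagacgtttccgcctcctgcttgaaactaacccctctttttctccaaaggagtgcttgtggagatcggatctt
Both strands were searched. Of 27305 promoters in the table, 1.29% held a CArG box, 3.67% TGATGNAA, 0.0806% the stress element and 35.7% CCAAT, which is also part of the stress element. Of the 61 genes that passed, 41 matched a promoter, 18 that rose and 23 that fell. A CArG box was in 0 of the 18 and 1 of the 23, TGATGNAA in 2 and 2, the stress element in 0 and 1, CCAAT in 9 and 6, and CACGTG, the E-box core found in 7.43% of all promoters, in 3 and 2. The gene with the CArG box was CNN2, and that with the stress element was HSPA5. VASP, PALLD, WDR1, DSTN and ARHGDIA, also of the actin genes that fell, had no CArG box. A match describes the letters of the window and is not evidence that a factor binds there.

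SLC2A5 encodes GLUT5, a transporter of fructose, and had the largest rise at that level. It had 10.7, 6.14 and 8.58 CPM at day 4, against 3.002, 2.2 and 1.79 CPM at day 2 (log2 fold change 1.78, SE 0.30, limma adjusted p = 0.0156). Each day 4 library was above each day 2 library by a wide margin. With the scramble duplex the gene fell instead, with a log2 fold change of -0.51 (limma adjusted p = 0.00853), and in HMLE its log2 fold change of 0.66 did not pass (limma adjusted p = 0.0969). SLC2A12, which encodes the sugar transporter GLUT12, had 16.6, 22.5 and 22.1 CPM at day 4, against 12.5, 12.1 and 14.4 CPM at day 2 (log2 fold change 0.63, SE 0.12, limma adjusted p = 0.0222). In HMLE it rose by 1.11 on the log2 scale, and the difference of -0.48, HMLE-TWIST1 minus HMLE, passed the test (limma adjusted p = 0.0471). TXNIP, an arrestin that binds thioredoxin and limits glucose uptake, had 515, 445 and 581 CPM at day 4, against 301, 347 and 244 CPM at day 2 (log2 fold change 0.80, SE 0.13, limma adjusted p = 0.0245). TXNIP also rose in HMLE, by 1.2 on the log2 scale, and with the scramble duplex, by 0.82. The glycolytic aldolase ALDOC had 71.6, 60.6 and 75.2 CPM at day 4, against 44.9, 37.6 and 47.4 CPM at day 2 (log2 fold change 0.67, SE 0.11, limma adjusted p = 0.0156). ALDOC went the other way with the scramble duplex, with 24.7, 24.8 and 21.9 CPM at day 4, against 86.9, 96.4 and 91.05 CPM at day 2. The angiogenic growth factor VEGFA had 237, 316 and 254 CPM at day 4, against 187, 159.5 and 187 CPM at day 2 (log2 fold change 0.59, SE 0.10, limma adjusted p = 0.0156), and rose in HMLE by 0.84 on the log2 scale.

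ALDOC and VEGFA were the members of the hypoxia and glycolysis list that rose, 2 of 39 tested, and none fell. An unadjusted p under 0.05 was seen for 17, against 12.7% of all genes. The median of the list was 0.13, where all genes had 0.002, and 31 of the 39 were above 0, against 51.1% of all genes. In HMLE 16 of the 39 rose and 8 fell, which stands beside 19.3% of all genes higher and 16% lower there. With the scramble duplex 1 rose and 35 fell, with a median of -1.01, where 13.7% of all genes were higher and 15.3% lower. Carbonic anhydrase CA9 and the enolase ENO2 were the next members by p in the DMSO cells, with log2 fold changes of 1.02 and 0.47, and neither passed (limma adjusted p = 0.12 and 0.128).

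The other large rises were signalling, secreted and membrane proteins. CDK18, a cyclin-dependent kinase of the PCTAIRE family, had 28.5, 20.8 and 23.2 CPM at day 4, against 13.4, 13.4 and 11.5 CPM at day 2 (log2 fold change 0.90, SE 0.13, limma adjusted p = 0.00765). It was the rise with the smallest adjusted p, shared with that of the complement regulator CFI, and did not pass in HMLE, where its log2 fold change was 0.22; the difference between the lines was 0.68 (limma adjusted p = 0.0134). The sulfotransferase CHST15, which modifies chondroitin sulfate, had 6.49, 8.88 and 5.68 CPM at day 4, against 4.84, 2.77 and 3.74 CPM at day 2 (log2 fold change 0.87, SE 0.18, limma adjusted p = 0.0468). SYT7, a calcium sensor for exocytosis, had 33.1, 31.9 and 38.3 CPM at day 4, against 19.2, 21.4 and 23.6 CPM at day 2 (log2 fold change 0.68, SE 0.11, limma adjusted p = 0.0156). With the scramble duplex SYT7 fell instead, with a log2 fold change of -0.56 (limma adjusted p = 3.06e-08). PLAU, the urokinase that activates plasminogen, had 30.9, 30.1 and 30.1 CPM at day 4, against 21.8, 19.9 and 15.9 CPM at day 2 (log2 fold change 0.67, SE 0.12, limma adjusted p = 0.0189). PLAU rose in all 3 settings, by 0.85 in HMLE and by 0.66 with the scramble duplex on the log2 scale. The kinase TNIK had 12.6, 15.3 and 13.3 CPM at day 4, against 9.68, 8.16 and 9.79 CPM at day 2 (log2 fold change 0.57, SE 0.12, limma adjusted p = 0.0479), and passed in 3 of the 15 alternatives, the fewest among the 61. C1R, a protease of the classical complement pathway, had 400.2, 336 and 458 CPM at day 4, against 290.4, 284 and 231 CPM at day 2 (log2 fold change 0.56, SE 0.10, limma adjusted p = 0.0251). In HMLE C1R fell (log2 fold change -0.36), and the lines differed by 0.93 (limma adjusted p = 0.000313). PLEKHA4, a protein with a pleckstrin homology domain, had 66.8, 57.9 and 72.3 CPM at day 4, against 42.1, 50.04 and 41.3 CPM at day 2 (log2 fold change 0.56, SE 0.09, limma adjusted p = 0.0156). CFI, a serine protease that inactivates complement, was below the level set for the largest changes and had 4.25, 4.23 and 5.36 CPM at day 4, against 2.52, 1.84 and 1.34 CPM at day 2 (log2 fold change 1.24, SE 0.17, limma adjusted p = 0.00765).

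**Figure D2:**
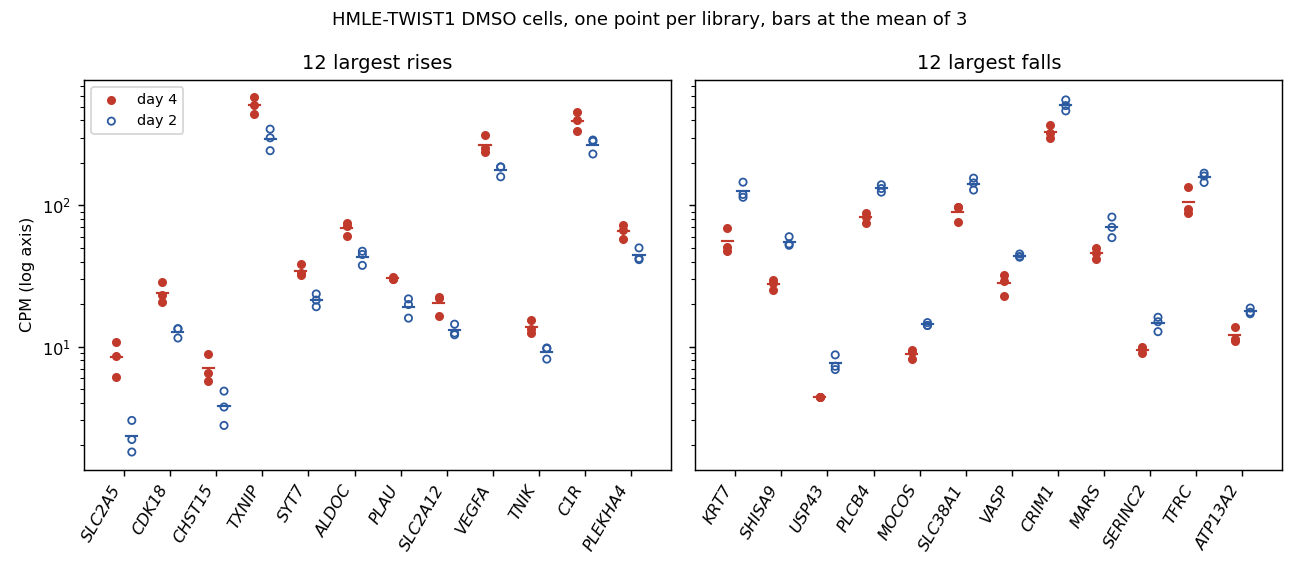
Level in CPM on a log axis of the 12 largest rises (left) and the 12 largest falls (right) in HMLE-TWIST1 DMSO cells, with filled points for day 4 libraries, open points for day 2 libraries and a bar at the mean of 3. The genes were chosen among those past the threshold whose libraries do not overlap between the days, and SLC2A5 and KRT7 have the widest gaps between the means.

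The largest fall among genes past the threshold at the same level was that of KRT7, a keratin of simple epithelia. It had 50.8, 68.8 and 47.7 CPM at day 4, against 119.6, 146 and 114 CPM at day 2 (log2 fold change -1.19, SE 0.13, limma adjusted p = 0.00765), and the lowest day 2 library stood well above the highest day 4 library. KRT7 was more abundant in HMLE, with 1097, 992 and 1089 CPM at day 4, against 939, 1204 and 1051 CPM at day 2, and its log2 fold change there was -0.001 (SE 0.13). The difference between the lines was -1.19 (SE 0.19, limma adjusted p = 0.00076). KRT7 also fell with the scramble duplex, with a log2 fold change of -0.27 (limma adjusted p = 0.00162), with 99.5, 95.7 and 84.8 CPM at day 4, against 112, 112 and 114 CPM at day 2.

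KRT7 was 1 of 50 epithelial genes tested, of which 3 rose and 1 fell; with sample weights, a limma fit by voom in which more variable libraries count for less, 1 rose and 2 fell. The list had a median of 0.13. In HMLE 22 members rose and 2 fell, where 19.3% of all genes were higher and 16% lower. DSG3 and SPINT2 were among the rises in HMLE-TWIST1. The desmosomal cadherin DSG3 had 3.32, 4.65 and 3.86 CPM at day 4, against 2.03, 2.56 and 2.09 CPM at day 2 (log2 fold change 0.77, SE 0.13, limma adjusted p = 0.0156). The protease inhibitor SPINT2 had 10 reads over the 3 libraries of day 4 and 0 at day 2, where a count of 0 allows up to 0.0818 CPM, and no fold is given for it. Other low genes that passed also rested on few reads: the protease KLK5 on 6 reads at day 4 and 0 at day 2, the protocadherin PCDH1 on 1 and 9, the keratin KRT81 on 6 and 33, the potassium channel KCNK1 on 9 and 35, RP3-416H24.1 on 10 and 61, and RP11-530N7.3 on 34 and 7. In HMLE KRT81 had 9402 reads at day 4 and 7739 at day 2, and SPINT2 had 3716 and 4822. KLK5 had 5416 and 4003 there, and PCDH1 had 3180 and 2345. These were thus genes of the parent line at near-zero level in HMLE-TWIST1. SPINT2, KLK5, PCDH1, KRT81 and KCNK1 met the read filter only through the HMLE libraries. They were too low to be tested in the fit of the 6 HMLE-TWIST1 libraries alone. RP11-530N7.3 met the filter only through the day 4 libraries, where it was high. These genes are counted among those that passed, but their calls are no support for a change. Reads of keratin paralogs could be split by the counting, and whether it used strand is not given in the sources used here, so the values of KRT81, RP3-416H24.1 and RP11-530N7.3 are uncertain.

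A set of genes of actin and of the proteins that bind it fell at day 4, each by less than 2-fold. VASP, which promotes elongation of actin filaments, had 29.2, 32.1 and 22.96 CPM at day 4, against 43, 45.3 and 43.5 CPM at day 2 (log2 fold change -0.66, SE 0.11, limma adjusted p = 0.0156). Beta-actin (ACTB) had 3007, 3518 and 2782 CPM at day 4, against 4418, 4412 and 4734 CPM at day 2 (log2 fold change -0.55, SE 0.09, limma adjusted p = 0.0156), and reads it shares with other actins could be split by the counting. CNN2, a calponin that binds actin and whose promoter is shown above, had 159.6, 178 and 153 CPM at day 4, against 226, 244 and 223 CPM at day 2 (log2 fold change -0.50, SE 0.09, limma adjusted p = 0.0178). Palladin (PALLD), a scaffold of actin bundles, had 331, 425 and 355 CPM at day 4, against 494, 606 and 515 CPM at day 2 (log2 fold change -0.54, SE 0.10, limma adjusted p = 0.0269). The 4 genes had no overlap between the days. The list of 59 actin cytoskeleton genes was drawn up after values had been seen, so its counts are a description. In it 0 rose and 8 fell, where 0.147% of all genes were higher and 0.198% lower. Below 0 were 54, against 48.6% of all genes, and 39 had no overlap between the days, against 18.6%. The median was -0.29, and with sample weights 19 fell. The other 4 that fell, given with their log2 fold changes, were the filament disassembly factors WDR1 (-0.41) and DSTN (-0.36), the linker PLEC (-0.35) and ARHGDIA, an inhibitor of small GTPases (-0.31). In HMLE 5 of the 59 rose and 15 fell, with a median of -0.09, where 19.3% of all genes were higher and 16% lower. With the scramble duplex 2 rose and 43 fell, with a median of -0.35, where 13.7% of all genes were higher and 15.3% lower. The test of the difference between the lines passed for 18 of the 59, 3 higher and 15 lower in HMLE-TWIST1, against 8.51% higher and 10.7% lower among all genes.

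Of 27 YAP and TEAD targets, genes that respond to cell shape and tension, none rose and 2 fell, 11 had an unadjusted p under 0.05, a level that 12.7% of all genes reached, and 24 were below 0. CRIM1, a cysteine-rich membrane protein, had 325, 372 and 302 CPM at day 4, against 467, 559 and 509 CPM at day 2 (log2 fold change -0.62, SE 0.09, limma adjusted p = 0.0107). CYR61, a secreted matrix protein, had 331, 398 and 343 CPM at day 4, against 538, 486 and 552 CPM at day 2 (log2 fold change -0.56, SE 0.10, limma adjusted p = 0.0179). The median of the list was -0.18, and in HMLE 5 rose and 3 fell, where 19.3% of all genes were higher and 16% lower. Among duplex cells 4 rose and 8 fell, against 13.7% of all genes higher and 15.3% lower, and CRIM1 was among those higher, at 0.28. Among 44 mesenchymal genes none passed and 6 had an unadjusted p under 0.05, against 12.7% of all genes. With sample weights 1 fell, and the median was -0.09. Of 43 tested with the scramble duplex, 2 rose and 32 fell, with a median of -0.596, where 13.7% of all genes were higher and 15.3% lower. The actin regulator CALD1 came nearest in DMSO cells, at -0.38 (limma adjusted p = 0.0664). Among 22 genes of the TGF-beta response none passed either, 6 had an unadjusted p under 0.05, against 12.7% of all genes, and the median was -0.19. In HMLE 13 of them rose and 2 fell with a median of 0.72, where 19.3% of all genes were higher and 16% lower. The difference between the lines passed for 14 of these 22, 1 higher and 13 lower in HMLE-TWIST1, against 8.51% higher and 10.7% lower among all genes. INHBA, which encodes a subunit of activin, had a log2 fold change of -0.67 in HMLE-TWIST1 and of 1.0 in HMLE.

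Several genes of amino acid supply fell at day 4. SLC38A1, a transporter of glutamine and other neutral amino acids, had 96.8, 97.2 and 76.7 CPM at day 4, against 156, 128 and 144 CPM at day 2 (log2 fold change -0.67, SE 0.09, limma adjusted p = 0.00765), and passed in 14 of the 15 alternatives. The methionyl-tRNA synthetase MARS, whose promoter is shown above, had 49.9, 45.96 and 41.7 CPM at day 4, against 70.02, 59.1 and 82.7 CPM at day 2 (log2 fold change -0.61, SE 0.11, limma adjusted p = 0.0211). The glycyl-tRNA synthetase GARS had 150.2, 175 and 140.5 CPM at day 4, against 209.8, 219 and 257 CPM at day 2 (log2 fold change -0.56, SE 0.09, limma adjusted p = 0.0156). YARS, the tyrosyl-tRNA synthetase, had 67.1, 64.9 and 57.7 CPM at day 4, against 90.7, 79.3 and 103 CPM at day 2 (log2 fold change -0.52, SE 0.10, limma adjusted p = 0.0268). The aspartyl-tRNA synthetase DARS went the other way, with 263, 243 and 238 CPM at day 4, against 202, 198 and 206 CPM at day 2 (log2 fold change 0.30, SE 0.06, limma adjusted p = 0.0473). Day 4 and day 2 libraries did not overlap for these 5 genes. The ATF4 and amino acid list held GARS and MARS as its 2 falls among 36 tested, with no rise and a median of -0.26. An unadjusted p under 0.05 was seen for 16 members, against 12.7% of all genes. Below 0 were 34, against 48.6% of all genes, and with sample weights 6 fell. The cystine transporter SLC7A11 had the next smallest p and did not pass, at -1.39 (limma adjusted p = 0.0581). In HMLE 3 of the 36 rose and 21 fell, with a median of -0.42, where 19.3% of all genes were higher and 16% lower. With the scramble duplex 32 rose and 2 fell, where 13.7% of all genes were higher and 15.3% lower. The median there was 1.53, the opposite direction. MARS stood there at 178, 181 and 187 CPM at day 4, against 63.7, 55.9 and 61.5 CPM at day 2, and SLC38A1 at 252, 279 and 296 CPM at day 4, against 139.9, 142 and 135 CPM at day 2. Of 20 cytosolic tRNA synthetases, a list drawn up after values had been seen, 1 rose and 3 fell in DMSO cells with a median of -0.25, where 0.147% of all genes were higher and 0.198% lower. With the scramble duplex 14 of the 20 rose and 2 fell with a median of 0.90, where 13.7% of all genes were higher and 15.3% lower. MOCOS, which activates the molybdenum cofactor, had 9.195, 9.46 and 8.15 CPM at day 4, against 14.1, 14.1 and 14.8 CPM at day 2 (log2 fold change -0.68, SE 0.11, limma adjusted p = 0.0156). With the duplex it had 55.5, 55.03 and 57.2 CPM at day 4, against 14.3, 13.6 and 13.2 CPM at day 2, the largest rise there among the 61 genes.

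HSPA5, the main chaperone of the endoplasmic reticulum, whose promoter is shown above, had 403, 438 and 395 CPM at day 4, against 608, 514 and 579.9 CPM at day 2 (log2 fold change -0.46, SE 0.08, limma adjusted p = 0.0156). It was the 1 fall among 22 endoplasmic reticulum chaperones, with no rise, 11 members at an unadjusted p under 0.05 and a list median of -0.17, and with sample weights 2 fell. HSPA5 also fell in HMLE (log2 fold change -0.34) and with the scramble duplex (log2 fold change -1.31). With the duplex 6 of the 22 rose and 14 fell, against 13.7% of all genes higher and 15.3% lower. Among 22 heat shock genes none passed and the median was -0.11. An unadjusted p under 0.05 was seen for 5 of them, against 12.7% of all genes.

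The other large falls had varied roles. SHISA9, known as an auxiliary protein of AMPA receptors in brain, had 29.8, 25.3 and 28.3 CPM at day 4, against 52.2, 60.04 and 53.4 CPM at day 2 (log2 fold change -0.98, SE 0.19, limma adjusted p = 0.0347). USP43, of the family of ubiquitin-specific proteases, had 4.404, 4.397 and 4.398 CPM at day 4, against 7.26, 6.88 and 8.74 CPM at day 2 (log2 fold change -0.76, SE 0.12, limma adjusted p = 0.0156). The phospholipase PLCB4 had 83.1, 89.1 and 75.3 CPM at day 4, against 124, 140 and 132 CPM at day 2 (log2 fold change -0.68, SE 0.10, limma adjusted p = 0.00765). SHISA9 had 0 reads in the 6 HMLE libraries, so its change could not be compared between the lines. PLCB4 did not pass in HMLE, and the lines differed by -0.77 (limma adjusted p = 0.000802). SERINC2, of the serine incorporator family, had 9.97, 9.62 and 9.01 CPM at day 4, against 15.01, 12.8 and 16.1 CPM at day 2 (log2 fold change -0.60, SE 0.11, limma adjusted p = 0.0211). The transferrin receptor TFRC, which brings iron into cells, had 94.7, 135 and 88.5 CPM at day 4, against 162, 145 and 169 CPM at day 2 (log2 fold change -0.60, SE 0.12, limma adjusted p = 0.0478), and day 4 replicate 2 lay near the day 2 libraries. ATP13A2, a lysosomal transport ATPase, had 13.7, 11.3 and 11.1 CPM at day 4, against 17.5, 17.1 and 18.8 CPM at day 2 (log2 fold change -0.57, SE 0.10, limma adjusted p = 0.0211). It rose in HMLE, by 0.49 on the log2 scale, and the lines differed by -1.05 (limma adjusted p = 8.55e-05).

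Genes of antigen presentation and p53 were among the smaller rises. HLA-B had 326, 330.3 and 347 CPM at day 4, against 234, 262 and 221 CPM at day 2 (log2 fold change 0.49, SE 0.08, limma adjusted p = 0.016). The classical class I genes are near copies of one another, and reads they share could be split by the counting. A list of 17 class I presentation genes, drawn up after values had been seen, had 2 rises, HLA-B among them, no fall and a median of 0.18, and with sample weights 4 rose. Among 41 interferon-stimulated genes none passed and the median was 0.12. An unadjusted p under 0.05 was seen for 4 of them, against 12.7% of all genes. CCNG1, a cyclin induced by p53, had 251, 259 and 269 CPM at day 4, against 203, 198 and 201 CPM at day 2 (log2 fold change 0.37, SE 0.07, limma adjusted p = 0.0321). It was the 1 rise among 29 p53 targets, of which none fell and 8 had an unadjusted p under 0.05, against 12.7% of all genes. In HMLE 23 of the 29 rose and none fell, where 19.3% of all genes were higher and 16% lower. Their median was 0.68 there, against 0.15 in HMLE-TWIST1. The difference between the lines passed for 12, each lower in HMLE-TWIST1, where 10.7% of all genes were lower. TXNIP was the 1 rise among 35 quiescence and FOXO genes and among 28 NRF2 and thioredoxin genes, with no fall in either. With sample weights 2 rose in the first list, and 2 rose and 2 fell in the second. In HMLE the first list had 20 rises and 3 falls, and the second 6 and 13. Among all genes there, 19.3% were higher and 16% lower.

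No gene of the cell cycle lists passed the test in HMLE-TWIST1 with DMSO, whereas most of them fell in HMLE. Of 36 mitosis genes none passed in HMLE-TWIST1, none had an unadjusted p under 0.05, none passed with sample weights, the median was 0.08, and the 95% confidence interval of each of the 36 lay inside 2-fold. In HMLE all 36 fell, with a median of -2.10, where 16% of all genes were lower. TOP2A, the topoisomerase that untangles chromosomes before division, had 1419, 1103 and 1162 CPM at day 4, against 1103, 922 and 1196 CPM at day 2 in HMLE-TWIST1. The same gene had 187, 299.9 and 227 CPM at day 4, against 930.1, 909.6 and 1041 CPM at day 2 in HMLE. The test of the difference between the lines passed for 35 of the 36, each higher in HMLE-TWIST1, where 8.51% of all genes were higher. Of 58 replication-dependent histone genes none passed in HMLE-TWIST1, none had an unadjusted p under 0.05 and the median was 0.06, whereas 52 fell in HMLE with a median of -2.08; the difference passed for 51. Of 45 DNA replication genes none passed in HMLE-TWIST1, 2 had an unadjusted p under 0.05 and the median was 0.02, with 1 rise and 40 falls in HMLE and a difference that passed for 33. In HMLE-TWIST1 cells with the scramble duplex these lists did hold calls. There 1 mitosis gene rose and 15 fell (median -0.21), and 1 DNA replication gene rose and 21 fell (median -0.19). Of 59 histone genes tested there, 27 rose and 2 fell (median 0.39). Among all genes there, 13.7% were higher and 15.3% lower. Ribosome biogenesis (33 genes) and oxidative phosphorylation (54 genes) gave no call in HMLE-TWIST1, with 6 and 1 at an unadjusted p under 0.05, against 12.7% of all genes, and medians of -0.07 and -0.02. In HMLE 28 and 30 of them fell, where 16% of all genes were lower. Ribosomal protein genes had the highest list median in HMLE-TWIST1, 0.22, with 75 of 77 above 0, 30 at an unadjusted p under 0.05 and none past the threshold, and 52 of the 77 rose with the scramble duplex.

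**Figure D3:**
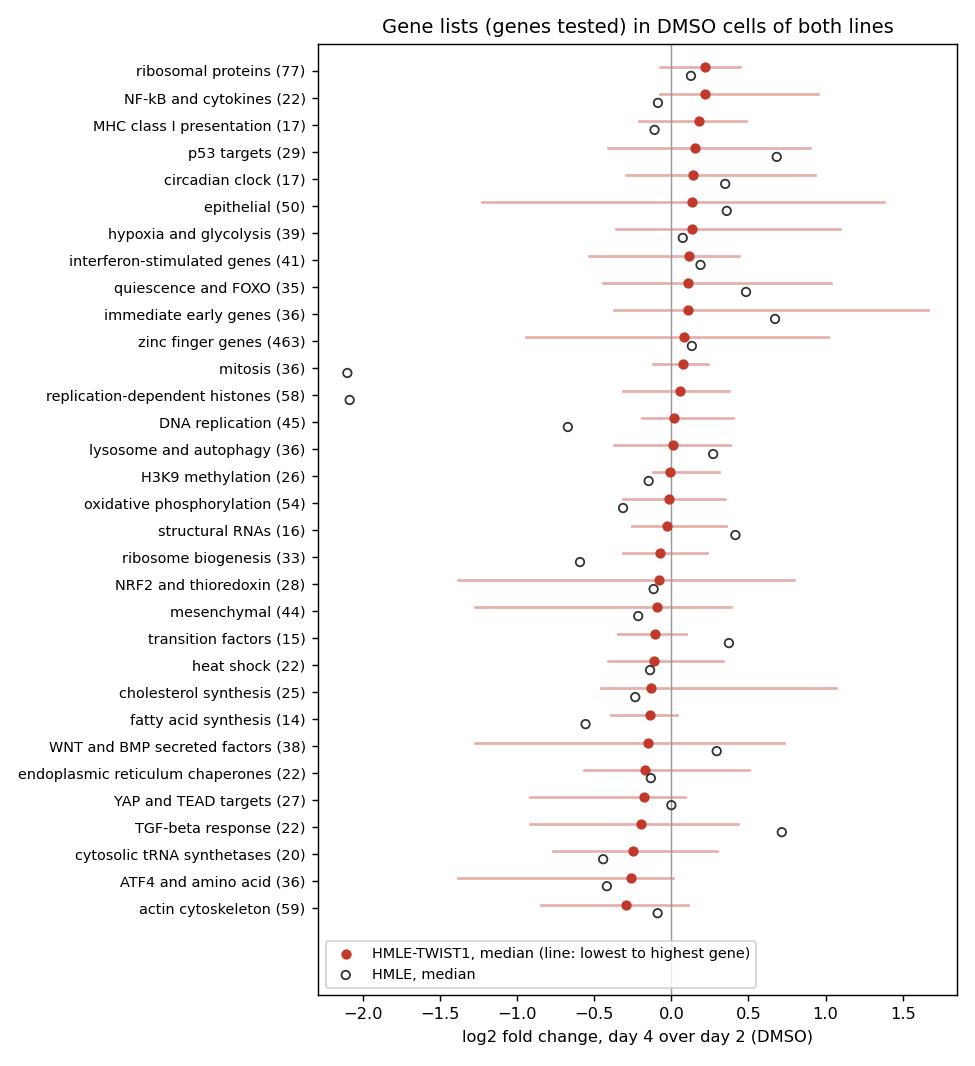
Median log2 fold change of day 4 over day 2 for each gene list, with filled points for HMLE-TWIST1, a line from its lowest to its highest gene, and open points below them for HMLE; the number of genes tested stands after each name. The mitosis and histone medians are near 0 in HMLE-TWIST1 and near -2.1 in HMLE, and the lists of actin cytoskeleton, cytosolic tRNA synthetases and class I presentation were drawn up after values had been seen.

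Across all genes, 3417 were higher at day 4 in HMLE (19.3%) and 2824 were lower (16%), in the same fit and from libraries of similar depth. Their make-up was less alike: MALAT1 took 7.93 to 10.6% of HMLE libraries at day 4, against 4.4 to 5.79% at day 2. The TMM factors of HMLE were 0.8892 to 0.9169 at day 4, against 0.9915 to 1.037 at day 2. The reason for that shift was not tested. The test of the difference itself, the change in HMLE-TWIST1 minus that in HMLE, passed for 1504 genes higher (8.51%) and 1890 lower (10.7%) in HMLE-TWIST1. Of these 3394 genes, 3129 (92.2%) had a change past the threshold in HMLE and 34 had one in HMLE-TWIST1. A change of 2-fold or more was seen in HMLE-TWIST1 for 29 of the 3394 and in HMLE for 886. The 5 largest positive differences among genes with a mean log2 CPM of at least 2 in each line and no overlap between the days in either were KIF15 (2.52), MNS1 (2.09), ADD2 (2.07), DBF4P1 (1.86) and MT1E (1.76). KIF15, a kinesin of the mitotic spindle, had 169, 129.9 and 133 CPM at day 4, against 123, 118 and 118 CPM at day 2 in HMLE-TWIST1. In HMLE it had 12.01, 21.5 and 14.4 CPM at day 4, against 77.5, 76.2 and 72.2 CPM at day 2. The metallothionein MT1E, which binds zinc and copper, had 52.1, 41.98 and 55.7 CPM at day 4, against 37.4, 39.3 and 38.7 CPM at day 2 in HMLE-TWIST1, and in HMLE 16.3, 18.4 and 19.1 CPM at day 4, against 44.3, 52.3 and 46.4 CPM at day 2. The 5 largest negative differences under the same conditions were MAP2 (-2.11), SHANK2 (-1.79), DAPK1 (-1.76), SMPDL3A (-1.73) and SKIL (-1.69). MAP2, a microtubule-binding protein, had 35.5, 42.3 and 40.01 CPM at day 4, against 50.3, 55.7 and 64.9 CPM at day 2 in HMLE-TWIST1, and in HMLE 126, 84.9 and 86.7 CPM at day 4, against 37.6, 28.2 and 32.6 CPM at day 2. SKIL, a repressor of SMAD signalling that TGF-beta induces, had 103, 120.1 and 111 CPM at day 4, against 127, 123 and 131 CPM at day 2 in HMLE-TWIST1, and in HMLE 558, 537 and 461 CPM at day 4, against 212, 208 and 139.8 CPM at day 2. None of these 10 genes passed the test in HMLE-TWIST1 alone.

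Of the 26 rises in HMLE-TWIST1, 10 also rose in HMLE, 3 fell there and 13 did not pass, and for 14 the difference between the lines passed. Of the 35 falls, 8 also fell in HMLE, 7 rose there and 20 did not pass. For 20 of the 35 the difference passed, SHISA9 with its 0 reads in HMLE among them. The counts here and with the duplex below include the genes on few reads whose calls are no support for a change. KLK5 was among the rises shared with HMLE, and KRT81 and PCDH1 were among the falls that rose there. SPINT2, KRT81, PCDH1 and KCNK1 were among the genes whose difference passed. In HMLE-TWIST1 cells with the scramble duplex, a table part that the authors scaled separately, 2569 of 18739 genes were higher at day 4 (13.7%) and 2868 were lower (15.3%). Of the 25 rises in DMSO cells that could be tested there, 8 rose, 4 fell and 13 did not pass; the 8 are 30.8% of the 26 rises in DMSO cells and 0.311% of the rises with the duplex. Of the 35 falls, 21 fell, 7 rose and 7 did not pass; the 21 are 60% of the falls in DMSO cells and 0.732% of the falls with the duplex. Over 17510 genes the log2 fold changes in DMSO cells and with the duplex correlated at 0.090, a description across genes, which are not independent replicates. The duplex cells spent other times before and after the change of medium, so the values are set side by side and no difference between the treatments was tested.

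**Figure D4:**
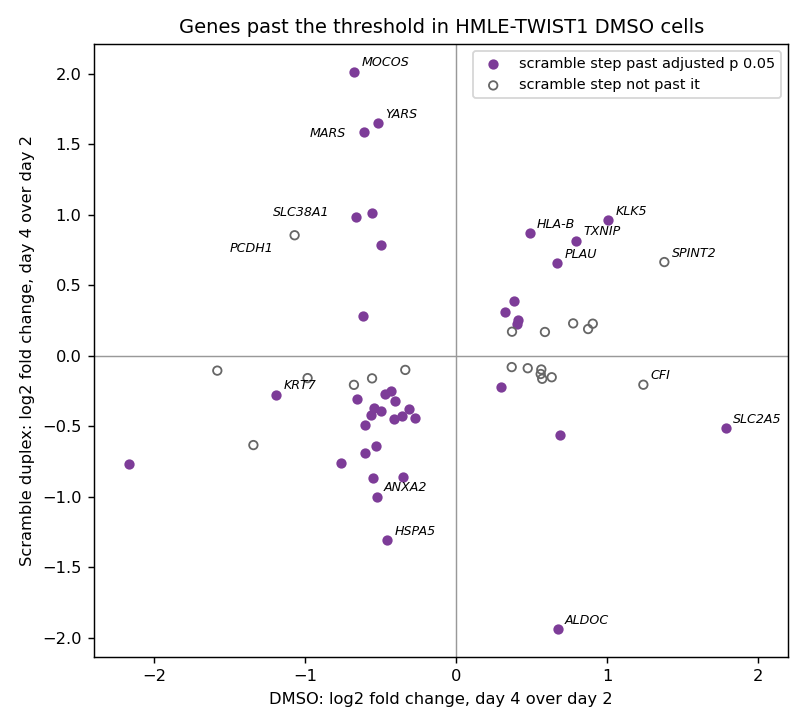
Log2 fold change of day 4 over day 2 in HMLE-TWIST1 cells with DMSO (x axis) and with the scramble duplex (y axis) for 60 of the 61 genes past the threshold in DMSO cells. Filled points passed the test with the duplex too; MOCOS, YARS and MARS fell with DMSO and rose with the duplex, and ALDOC did the reverse, while SPINT2, KLK5 and PCDH1 rest on 10 or fewer reads per day.

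The remaining lists held no gene past the threshold in HMLE-TWIST1. They were cholesterol synthesis (25 genes tested, median -0.13), fatty acid synthesis (14, -0.14), transition factors (15, -0.11), H3K9 methylation (26, -0.01), NF-kB and cytokines (22, 0.22), immediate early genes (36, 0.11), lysosome and autophagy (36, 0.01), circadian clock (17, 0.14), secreted WNT and BMP factors (38, -0.15), structural RNAs (16, -0.03) and zinc finger genes (463, 0.08). At an unadjusted p under 0.05 they held 9, 2, 2, 0, 8, 7, 9, 5, 6, 2 and 42 genes in that order, where 12.7% of all genes reached that level. With sample weights 1 gene of NF-kB and cytokines rose and 1 zinc finger gene fell. Cholesterol synthesis fell with the scramble duplex in 23 of 25 genes, with a median of -1.38, where 15.3% of all genes were lower. The zinc finger genes had 308 of 463 members above 0, against 51.1% of all genes. Many of them lie in chromatin that H3K9 methylation marks, and a link with that mark was not tested.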

How the data were processed

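Total RNA, depleted of ribosomal RNA, was made into stranded libraries, per the labels' protocols. Per the submitters' processing notes, STAR, HTSeq and the build hg19 (GRCh37) were used; versions and counting options are not given in the sources used here. The authors deposited log2 RPKM values in a table that they scaled in 3 separate parts. Within a part, 2 to the power of a value rises in equal steps of 1 read per gene. Whole reads were recovered on this basis for 100% of 21700 genes in the part with DMSO, with a largest distance of 2.4e-08 from a whole number; 3 genes allowed 2 lengths. A second deposited table with 81 unnamed columns was not used. The reads on genes per library were 8613882 to 14500034 in that part, and intervals cover the spread between libraries.

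The main test was limma 3.58.1 in R 4.3.3, with a trended, robust variance, on log2 CPM (prior count 2, TMM scaling) of the 12 DMSO libraries with 4 group means, and Benjamini-Hochberg adjustment over all genes with at least 10 reads in 3 libraries and 15 in total. The scramble libraries were fitted with the other duplex libraries, 24 in all, in the same way. The functions were tested on simulated counts first. Genes named were TWIST1, SUV39H1, SUV39H2 and 7 transition markers, then the 12 largest rises and falls among genes past the threshold with no overlap of groups and a mean log2 CPM of at least 2. To these were added up to 4 members per list by adjusted p and the 5 largest differences between lines in each direction under the same conditions in both lines. The low genes past the threshold, RNA5-8SP6 and the additional genes with a role in a list were chosen after their values were seen. Some genes that met these rules are not reported here. The members and gene lists were chosen with earlier results of these data known, and 3 lists (actin cytoskeleton, cytosolic tRNA synthetases, class I presentation) after values were seen. Promoters came from RefSeq, build GRCh38.p14. Alternatives of scaling, filter, prior count, weights, replicate block, libraries in the fit and left-out libraries were run.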

Additional observations from a re-analysis of the deposited data

Results flagged for a closer look

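The change at day 4 relative to day 2 differed between the lines by a test of the difference itself, HMLE-TWIST1 minus HMLE on the log2 scale in limma, for 1504 genes higher and 1890 lower. The genes below passed that test among the markers, the 12 largest rises and falls and the 5 largest differences in each direction; other genes named in the report passed it too.

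Of the markers, TWIST1 differed by -0.94, SUV39H1 by 1.07 and SUV39H2 by 0.94; all 3 had a change past the threshold in HMLE and none in HMLE-TWIST1. Of the largest rises in HMLE-TWIST1, CDK18 differed by 0.68, C1R by 0.93 and PLEKHA4 by 0.51, each higher in HMLE-TWIST1. SYT7 differed by -0.61 and SLC2A12 by -0.48, and both rose in HMLE too. Of the largest falls, KRT7 differed by -1.19, USP43 by -1.10, PLCB4 by -0.77, SLC38A1 by -0.71, VASP by -0.82, CRIM1 by -0.47 and ATP13A2 by -1.05.

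The largest differences among genes with a mean log2 CPM of at least 2 in each line and no overlap between the days in either were KIF15 at 2.52, MNS1 at 2.09, ADD2 at 2.07, DBF4P1 at 1.86 and MT1E at 1.76, each of which fell in HMLE. On the other side were MAP2 at -2.11, SHANK2 at -1.80, DAPK1 at -1.76, SMPDL3A at -1.73 and SKIL at -1.69, each of which rose in HMLE. The limma adjusted p of these 25 genes ran from 1.05e-06 for MT1E to 0.0471 for SLC2A12.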

How the results depend on the processing

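The count of genes that differed between the days in HMLE-TWIST1 changed most among the counts of genes. Against 26 higher and 35 lower, limma on the deposited log2 RPKM gave 0 and 1, voom with sample weights gave 62 and 122, and a fit of all 15 libraries of the table part gave 47 and 66. Left-out libraries gave 0 to 61 higher and 3 to 121 lower; the cause was not tested. With the replicate number as a block there were 64 higher and 93 lower, 60 of the 61 genes among them. Deviations of HMLE-TWIST1 libraries with the same number correlated at 0.086, -0.0095 and 0.040, and those of HMLE at 0.111, 0.096 and 0.051. So few and weak correlations cannot decide whether the numbers pair the libraries. Median of ratios scaling, no filter, a minimum of 50 reads, a prior count of 0.5 and a fit of the 6 HMLE-TWIST1 libraries alone gave 23 to 28 higher and 33 to 42 lower, but that last fit held 33 of the 56 genes it tested among the 61. The counts for HMLE, for the difference between the lines and for the scramble duplex stayed within 1.5 times their value in each alternative run, and no named gene reversed. List medians moved by more than the spread between replicates in 4 cases under other settings and in 14 with a library left out. The epithelial median, 0.13, was 0.21 with sample weights, 0.04 in the fit of the 6 libraries alone and 0.06 without day 4 replicate 3. The median of the p53 targets, 0.15, was 0.07 without day 2 replicate 3, where cholesterol synthesis stood at -0.05 against -0.13 and fatty acid synthesis at -0.02 against -0.14. Structural RNAs turned to 0.12, against -0.03, without day 2 replicate 2. Fits with edgeR and DESeq2 were planned and not run. Depth limits the low genes: KLK5, SPINT2 and PCDH1 rest on 10 or fewer reads per day in HMLE-TWIST1.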
